A study of Mus musculus with 13 samples.

Results

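Cells lacking the histone demethylase Kdm3b were compared with wild-type (WT) cells after 10 days of a treatment that moves partly reprogrammed cells towards pluripotency. The comparison rests on 4 of the 13 RNA libraries of the series, 2 from Kdm3b knockout (KO) and 2 from WT cells, chosen by their labels for genotype and time point. Both groups were pre-iPSCs, mouse embryonic fibroblasts (MEFs) whose reprogramming to induced pluripotent stem cells had stalled. Both had been treated with ascorbic acid at 50 µg/mL and with CHIR-99021 and PD-0325901, kinase inhibitors together called 2i, in serum-containing ESC medium supplemented with LIF, and had been split at day 4. The replicates of a group are named A and B. The labels do not say whether A and B were separate cultures or how many clones stand behind each genotype. The p-values therefore measure only the spread between replicate libraries. Except where a fit of the 4 libraries alone is named, that spread was estimated over all time points of the pre-iPSCs. It is then not the spread of these 4 libraries alone. The labels also do not say how the fibroblasts were reprogrammed.

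KDM3B is a Jumonji-type enzyme that removes methyl groups from lysine 9 of histone H3 (H3K9), a mark of silent chromatin, and ascorbic acid is known to support enzymes of this type. CHIR-99021 inhibits GSK3, which stabilises β-catenin and so mimics Wnt signalling. PD-0325901 inhibits MEK and so lowers ERK signalling. Together with LIF, which acts through STAT3, the inhibitors hold mouse embryonic stem cells (ESCs) in the naive state, the state that resembles the preimplantation epiblast. Pre-iPSCs treated in this way can complete reprogramming, during which fibroblast genes are shut off and pluripotency, epithelial and some germline genes are switched on.

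The 4 libraries held 15460134 to 18144516 expected counts, and 16328 and 16302 genes had at least 1 count in WT against 15187 and 15140 in KO. Levels below are library-size-normalised counts (CPM), always given as replicate A and then replicate B, and serve to compare the same gene between libraries. A log2 fold change is KO over WT with its standard error (SE), and genes were called at a Benjamini-Hochberg adjusted p (FDR) under 0.05 in the quasi-likelihood test of edgeR over all 14324 genes tested. Replicates were close: the log2 levels of all tested genes correlated at 0.994 between the WT libraries and between the KO libraries, and at 0.897 to 0.910 between genotypes, as a description over genes of 4 libraries. The 8 libraries of days 0 and 2 entered the same fit, and 1 library of V6.5 ESCs, which has no replicate, entered no test.

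Kdm3b was lower in KO, as its label states. It had 194 and 193 CPM in WT and 19.6 and 41.4 CPM in KO (log2 fold change -2.67 ± 0.39, FDR = 0.00121), so that KO kept 15.8% of the WT level. Totals per gene cannot place these remaining reads within the gene. Of the Y-linked genes Ddx3y, Eif2s3y, Uty and Kdm5d, none was called, and each was read in all 4 libraries at 21.6 CPM or more.

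Of the genes tested, 4628 (32.3%) differed between KO and WT at day 10. A total of 2846 (19.9%) were lower in KO and 1782 (12.4%) were higher, and 2403 (16.8%) and 1121 (7.83%) of these differed by at least 2-fold. The median log2 fold change of all genes tested was -0.02, and in 81.6% of genes the KO and WT libraries did not overlap. The fit that used the 4 day 10 libraries alone called 8554 genes, and leaving out any 1 of these libraries brought the count to between 2620 (without KO replicate B) and 2849 (without KO replicate A). Calls shared with the count of 4628 numbered 4510 in the fit of 4 libraries and 2581 to 2800 without 1 library, in the same direction in each. In the fit of 4 libraries 4024 of 13734 genes were higher in KO and 4530 lower. Its counts of list members below are to be read against these. Of the genes named below as not called, 13 were called in the fit of 4 libraries: Pou5f1, Sox2, Klf4, Myc, Kdm5d, Jmjd1c, Ezh2, Esrp1, Socs3, Syce2, H2-K1, Ddx58 and Ifi35.

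**Figure D1:**
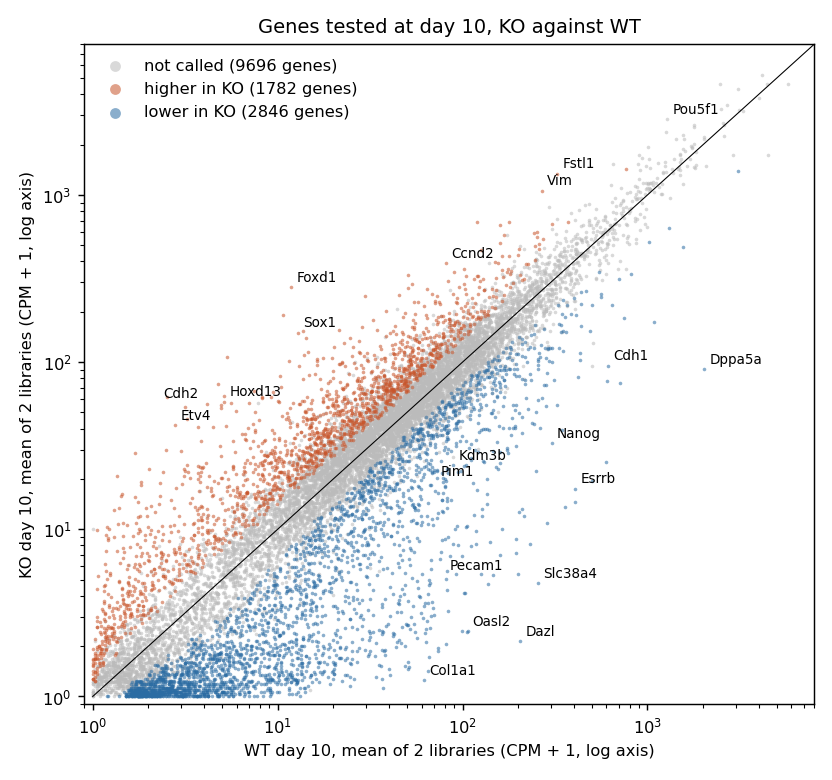
Mean level of each tested gene at day 10 in WT (x axis) and KO (y axis), as CPM + 1 on log axes, each the mean of 2 libraries; points above the line are higher in KO. The 2846 genes lower in KO reach farther from the line than the 1782 higher ones, and many of them lie along the bottom edge, near 0 CPM in KO.

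The 12 genes with the largest drop, by the naming rule, came from several programmes. They held the germ cell genes Dazl, Mov10l1, Rec8 and Aurkc, the collagens Col1a1 and Col5a2, the keratin Krt6a, the RNA helicase gene Ddx60 and the glutamate transporter gene Slc1a1. Aurkc, which encodes a kinase of meiotic chromosome segregation, had 39.4 and 32.9 CPM in WT and 0.062 and 0.181 CPM in KO (log2 fold change -8.13 ± 0.59, FDR = 7.78e-05). Slc1a1 had 460 counts in both WT libraries together and 2 in KO, a ratio of 215 (95% counting interval 59.3 to 1783). Ddx60 had 375 counts against 1, a ratio of 351 (62.6 to 13900).

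Several of the 12 genes with the largest rise encode transcription factors of neural or mesodermal development. Foxd1, a forkhead factor of kidney stroma, had 10.5 and 11.1 CPM in WT and 308 and 250.2 CPM in KO (log2 fold change 4.69 ± 0.23, FDR = 3.66e-05). Insm1, a zinc-finger factor of neuroendocrine cells, had 5.12 and 3.56 CPM against 116 and 97 CPM (4.61 ± 0.23, FDR = 3.66e-05). In both genes the KO libraries lay far above the WT libraries. The lack of overlap was a condition of the naming rule and held for 81.6% of all genes tested. Nkx6-1 (4.70), Ebf3 (5.26) and Sp8 (5.13), factors of neural patterning, were also among the 12, as were Cdh8, a neuronal cadherin (5.28), Gpm6b, a neuronal membrane protein (5.11), Plcb1, a phospholipase C (4.62), and Fras1, a basement membrane protein (5.32). Tac2, a neuropeptide precursor, had the largest fitted value of the 12 (5.73 ± 1.31, FDR = 0.0101) but was uneven, with 1.61 CPM in KO replicate A and 38 in B. Its call was lost without WT replicate A (FDR = 0.0592) and without WT replicate B (FDR = 0.0824).

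To describe gene groups, 33 lists were counted. A gene that is expressed in WT alone can pass the filter on low counts only through WT, so that the counts describe the lists and support nothing beyond the gene-by-gene tests. The share of members lower in KO was at least 66.7% for 12 lists, those of germ cell, Rhox, meiosis, interferon, collagen, trophectoderm, epithelial, general pluripotency, two-cell, stratified epithelium, naive pluripotency and immune genes, against 19.9% of all genes; the immune list has only 6 tested members, and 1 to 3 of them fell without 1 day 10 library. It was 4.17% for cell cycle genes. Among all lists, Hox clusters (56.7%) and ERK targets (50%) had the highest shares of members higher in KO, against 12.4% of all genes.

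**Figure D2:**
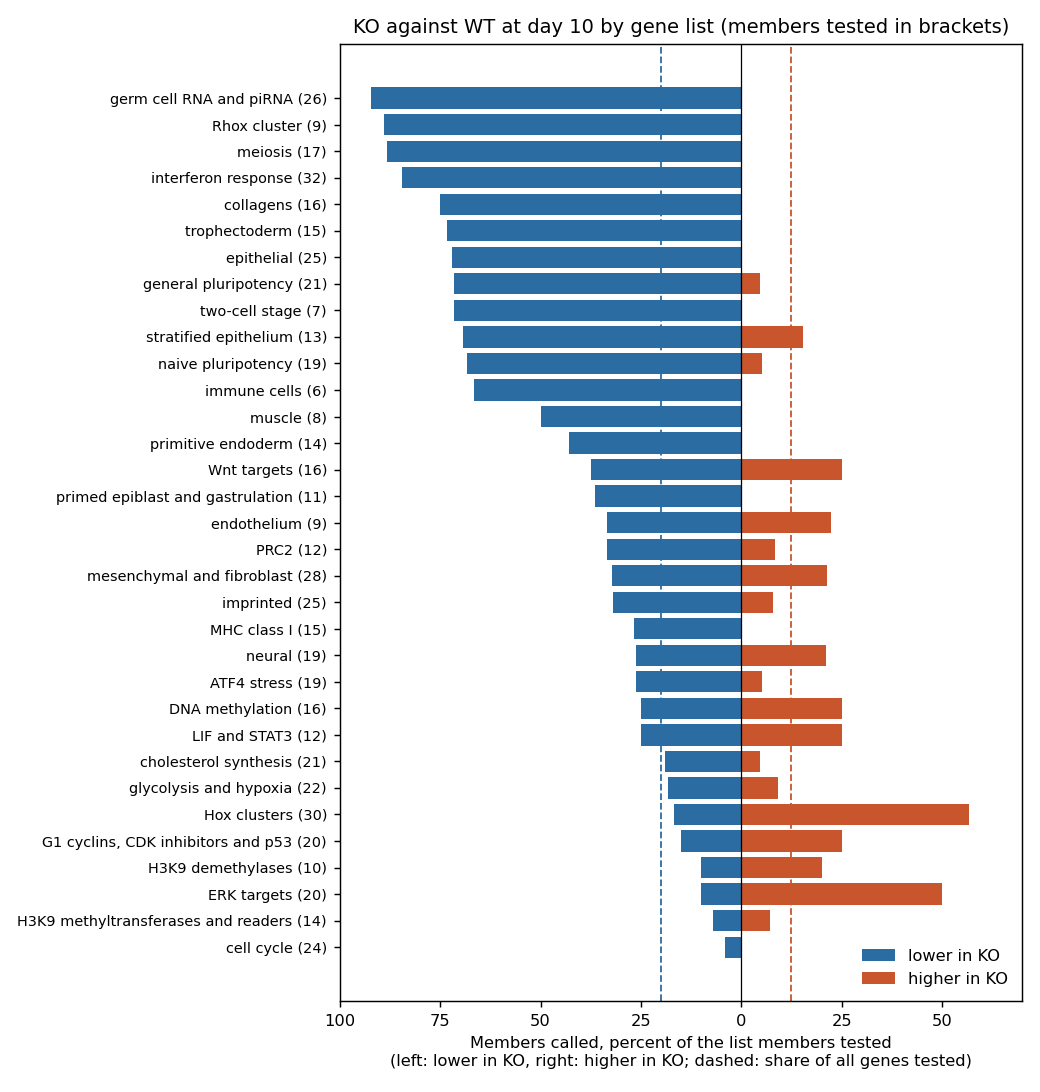
Share of the tested members of each of 33 gene lists that were called lower (bars to the left) or higher (bars to the right) in KO at day 10, in percent, with the number tested in brackets; dashed lines mark the shares of all genes, 19.9% lower and 12.4% higher. Germ cell genes reach 92.3% lower, while Hox clusters reach 56.7% higher.

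Naive pluripotency genes were mostly lower in KO. Of 19 tested, 13 fell, 1 rose and 5 were not called (median log2 fold change -1.50). Nanog, a core transcription factor of pluripotency, had 285 and 319.8 CPM in WT and 32.5 and 30.9 CPM in KO (log2 fold change -3.25 ± 0.32, FDR = 0.000198). Esrrb, an orphan nuclear receptor that is a target of GSK3 inhibition in ESCs, had 391 and 419 CPM against 24.6 and 8.44 CPM (-4.62 ± 0.47, FDR = 0.00025). In both genes the KO libraries were below the WT libraries without overlap, and replicate A was the higher of the KO libraries for Esrrb. Tcl1, a co-activator of the kinase AKT, had 57.2 and 73.6 CPM against 2.36 and 0.784 CPM (-5.38 ± 0.50), and Nr5a2, a nuclear receptor that binds the Pou5f1 promoter, had 56.4 and 61.5 against 15.3 and 12.9 CPM (-2.06 ± 0.19). Zfp42, which encodes the naive marker REX1, fell by a log2 fold change of -4.97, Prdm14 by -4.99, Dppa3 by -4.96 and Tbx3 by -3.74. The member that rose was Stat3, the factor that LIF activates, with 178 and 163 CPM in WT and 283 and 292 CPM in KO (0.75 ± 0.15, FDR = 0.00556), a call lost without WT replicate B (FDR = 0.0603).

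The drop was uneven within the list. Tcl1 fell by -5.38, whereas Klf2, a Krüppel-like factor, fell by -1.29, and Nr0b1 and Gbx2 lay at 0.26 and 0.30 and were not called. The KO libraries had 0.73 and 0.642 CPM of Nanog at day 0 and 32.5 and 30.9 at day 10, and 0.0487 and 0 against 24.6 and 8.44 CPM of Esrrb, a contrast between days that was not tested here. In WT, Nanog at day 10 was close to its level in the ESC library, 314 CPM, and Esrrb was above it, 312 CPM.

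Of 21 general pluripotency genes, 15 fell, 1 rose and 5 were not called (median -1.90). Dppa4, a nuclear protein that acts with DPPA2, had 50 and 53 CPM in WT and 2.85 and 1.09 CPM in KO (log2 fold change -4.71 ± 0.44, FDR = 0.000179), and Dppa2 itself fell by -3.88. Fgf4, a growth factor secreted by pluripotent cells, had 257 and 303 against 49.7 and 57.3 CPM (-2.39 ± 0.23, FDR = 0.000196). Tdgf1, the NODAL co-receptor, had 568 and 643 against 94.9 and 57 CPM (-2.99 ± 0.30, FDR = 0.000219). Its ligand Nodal fell by -5.05 and the NODAL inhibitor Lefty1 by -4.03. In KO, replicate A was above replicate B in 16 of the 21 general and 13 of the 19 naive genes, and the part of this difference in the results was not tested.

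None of the 4 classical reprogramming factors was called. Pou5f1 had 1212 and 1339.5 CPM in WT and 2490.2 and 3170.0 CPM in KO (log2 fold change 1.15 ± 0.53, FDR = 0.139). Klf4 had 341 and 307 against 618 and 820.0 CPM (1.15 ± 0.63, FDR = 0.208) and Myc 149.7 and 126 against 328 and 449.8 CPM (1.49 ± 0.58, FDR = 0.0838). Each of these 3 was higher in both KO libraries than in both WT libraries. Sox2 was lower in both KO libraries, with 363 and 444 against 207 and 209 CPM (-0.96 ± 0.49, FDR = 0.178). With the replicate block all 4 were called, Sox2 at FDR = 0.0252, Pou5f1 at 0.0201, Klf4 at 0.0463 and Myc at 0.0123. In the fit of the 4 day 10 libraries all 4 were called too. Pou5f1 was at FDR = 7.27e-05 there, Sox2 at 7.25e-05, Klf4 at 8.73e-05 and Myc at 3.18e-05. That fit called 8554 of 13734 genes. Myc was also called in DESeq2 (adjusted p = 0.0364). Gene totals cannot tell the endogenous gene from a transgene, had the cells carried one.

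Germline genes were lower in KO almost throughout. Of 26 genes of germ cell RNA and piRNA metabolism, 24 fell and 0 rose, with Tdrd9 and Pld6 not called. The count of 24 was 16 in DESeq2. The median log2 fold change was -5.26, or -4.90 with the genes at 0 in KO set to their bound. Dazl, an RNA-binding protein of germ cells, had 219 and 188 CPM in WT and 1.86 and 0.422 CPM in KO (log2 fold change -7.48 ± 0.69, FDR = 0.0017). In DESeq2 its adjusted p was 0.259. Tdrd12, a Tudor protein of the piRNA pathway, had 83.3 and 82.1 against 3.47 and 1.02 CPM (-5.20 ± 0.55, FDR = 0.000421). Stk31, a kinase-domain Tudor protein of the testis, had 18 and 19.4 against 0.496 and 0.301 CPM (-5.53 ± 0.49, FDR = 0.00037). In each of these genes both KO libraries were far below both WT libraries, without overlap, which for Dazl was a condition of the naming rule. Mov10l1, the helicase that starts piRNA processing, had 420 counts in WT and 2 in KO, a ratio of 197 (95% counting interval 54.1 to 1629). Members with 0 counts in KO were at least 29.3-fold (Tex101), 22.5-fold (Asz1) and 16.2-fold (Tdrd1) lower, the floor being 3 counts in both KO libraries together. In DESeq2 the adjusted p of Tex101 was 0.201 and that of Asz1 0.0749, and without WT replicate A the FDR of Tex101 was 0.0532.

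Most meiosis genes were lower in KO as well. Of 17 tested, 15 fell and 0 rose, with Syce2 and Prdm9 not called (median -5.69, or -4.97 with bounds). Rec8, the meiotic cohesin, had 22.8 and 24.6 CPM in WT and 0.124 and 0.181 CPM in KO (log2 fold change -7.22 ± 0.57, FDR = 9.95e-05). Dmc1, the meiotic recombinase, had 18.3 and 20.2 against 0.496 and 0.241 CPM (-5.69 ± 0.51, FDR = 0.000143), and Sycp1, a component of the synaptonemal complex, had 11.7 and 9.06 against 0.31 and 0.422 CPM (-4.80 ± 0.43, FDR = 0.000143). The WT level of Rec8 was near the 28.5 CPM of the ESC library, whereas Dazl was far above the 8.76 CPM found there. In untreated cells Dazl had no count in any of the 4 libraries, and Rec8 had at most 0.148 CPM.

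Germline genes in cells outside the germline are commonly held silent at promoters rich in CpG, by DNA methylation, H3K9 methylation and the repressor complex that contains E2F6 and MGA with its partner MAX. The 250 bases before the start site of each gene, from RefSeq on GRCm38.p6, were therefore searched on both strands for CACGTG, the E-box that MAX dimers bind, and for TCCCGC, the core of the E2F site. Neither motif is contained in the other. Of 17492 protein-coding promoters, 6.64% held CACGTG and 21.6% held TCCCGC, and the median number of CpGs was 10. Promoters were found for 22 of the 26 germ cell genes, of which 8 held CACGTG and 8 held TCCCGC, with a median of 14.5 CpGs. They were found for all 17 meiosis genes, of which 5 held CACGTG and 8 held TCCCGC, with a median of 12 CpGs. These counts include members that were not called: Tdrd9 held CACGTG, Syce2 and Prdm9 held TCCCGC, and Pld6 held neither. To show what these windows hold, the promoters of 3 of the genes above are printed 5′ to 3′ on the strand of the gene, with the motif in capitals: Sycp1 (chr3:102936101-102936350, minus strand, 17 CpGs) and Stk31 (chr6:49395289-49395538, plus strand, 21 CpGs) for CACGTG, and Rec8 (chr14:55617916-55618165, plus strand, 10 CpGs) for TCCCGC. The promoters of Dazl, with 20 CpGs, and Tdrd12, with 6, held neither motif. A match is a description of the letters and not of binding.
Sycp1: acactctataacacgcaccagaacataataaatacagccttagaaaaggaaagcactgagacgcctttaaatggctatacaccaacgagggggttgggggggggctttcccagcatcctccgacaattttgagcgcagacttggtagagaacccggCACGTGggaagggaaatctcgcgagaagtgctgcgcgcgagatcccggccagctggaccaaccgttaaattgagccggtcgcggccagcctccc
Stk31: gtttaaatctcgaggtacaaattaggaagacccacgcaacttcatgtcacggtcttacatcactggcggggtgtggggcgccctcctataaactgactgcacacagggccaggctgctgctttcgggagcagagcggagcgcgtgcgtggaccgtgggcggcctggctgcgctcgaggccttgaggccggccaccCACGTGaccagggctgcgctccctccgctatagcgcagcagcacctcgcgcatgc
Rec8: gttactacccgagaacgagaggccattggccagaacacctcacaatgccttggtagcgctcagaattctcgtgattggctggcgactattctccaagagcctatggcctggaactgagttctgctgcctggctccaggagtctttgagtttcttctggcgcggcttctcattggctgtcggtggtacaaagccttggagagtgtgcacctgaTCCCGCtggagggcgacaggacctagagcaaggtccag

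Other genes with restricted expression in the germline or early embryo were lower too. Of 9 tested genes of the Rhox cluster, homeobox genes on the X chromosome, 8 fell (median -6.13, or -2.90 with bounds). Rhox9 had 31.7 and 36.4 CPM in WT and 8.37 and 5.73 CPM in KO (log2 fold change -2.27 ± 0.39, FDR = 0.00365). Rhox genes have near-identical copies that share reads, and the count of 8 was 2 in DESeq2, 2 without WT replicate A and 4 without any 1 of the other day 10 libraries. Of 19 markers of the two-cell stage, the short-lived state after the first cleavage, 14 were found in the tables, 7 of these passed the filter and 5 fell (median -3.45). Zscan4f had 210 counts in WT and 2 in KO, a ratio of 98.3 (95% counting interval 26.9 to 817), and its near-identical copies Zscan4c, Zscan4d and Zscan4e also fell. The count of 5 was 2 in DESeq2, 1 without WT replicate A, 1 without WT replicate B and 3 without KO replicate A. Xlr5b, of an X-linked family with germline expression, fell from 35.1 and 36.6 to 0.496 and 0.0603 CPM (-6.99 ± 0.75, FDR = 0.000301), and all 10 tested Xlr genes, which also share reads, were lower (median -6.36), a family looked at after its values were seen.

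Genes of the antiviral interferon response formed another large block lower in KO. Interferons act through cell surface receptors on genes that carry an interferon-stimulated response element, and RNA sensors such as IFIH1 (MDA5) start the response when they meet double-stranded RNA. Of 32 members tested, 27 fell and 0 rose (median -3.13), and the 5 not called were Ifi35, Ddx58, Bst2, Ifitm1 and Ifitm3. Among the sensors, Ifih1 had 19.11 and 13.5 CPM in WT and 0.682 and 0.844 CPM in KO (log2 fold change -4.41 ± 0.35, FDR = 0.000101), and Zbp1, a sensor of Z-form nucleic acid, had 43.5 and 37.7 against 4.71 and 4.22 CPM (-3.18 ± 0.25, FDR = 9.71e-05). Trim25, a ubiquitin ligase that activates RIG-I, had 321 and 304 against 78.5 and 75.4 CPM (-2.02 ± 0.17, FDR = 0.000126). All 3 had KO libraries well below the WT libraries and close to each other.

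Among the regulators and effectors, Irf7, the factor that amplifies the response, had 30.5 and 20.6 CPM in WT and 2.11 and 2.23 CPM in KO (log2 fold change -3.56 ± 0.33, FDR = 0.000161). Oasl2, an oligoadenylate synthetase-like protein, had 124 and 86.1 against 1.8 and 1.09 CPM (-6.18 ± 0.55, FDR = 0.000138). Isg15, a ubiquitin-like modifier, had 36.7 and 37.5 against 0.806 and 0.965 CPM (-5.38 ± 0.49, FDR = 0.000152). Ifit1, which binds viral RNA, had 289 counts in WT and 1 in KO, a ratio of 271 (95% counting interval 48.2 to 10720). The ESC library stood nearer to KO than to WT for several of these genes, with 11 CPM of Oasl2, 2.36 of Isg15 and 0.376 of Irf7. The 2 WT libraries of day 10 were the highest of the 13 for Oasl2, Isg15 and Irf7.

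The core of the interferon-stimulated response element, GAAA followed after any 2 bases by GAAA, was searched on both strands of the same windows. It was present in 9 of the 23 interferon promoters found (39.1%), in 1 of 22 germ cell promoters and in 3.02% of all promoters. The interferon promoters held a median of 5 CpGs. Those of Isg15 (chr4:156200819-156201068, minus strand, with 3 overlapping matches) and Ifit1 (chr19:34640639-34640888, plus strand, with 2 matches on the opposite strand) are shown with the matches in capitals. The promoters of Oasl2 and Irf7 held no match in this window.
Isg15: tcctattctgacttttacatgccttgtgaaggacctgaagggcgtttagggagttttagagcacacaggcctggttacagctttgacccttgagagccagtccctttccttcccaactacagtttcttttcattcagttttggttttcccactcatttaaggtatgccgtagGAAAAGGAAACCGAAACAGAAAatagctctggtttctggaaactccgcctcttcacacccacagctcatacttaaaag
Ifit1: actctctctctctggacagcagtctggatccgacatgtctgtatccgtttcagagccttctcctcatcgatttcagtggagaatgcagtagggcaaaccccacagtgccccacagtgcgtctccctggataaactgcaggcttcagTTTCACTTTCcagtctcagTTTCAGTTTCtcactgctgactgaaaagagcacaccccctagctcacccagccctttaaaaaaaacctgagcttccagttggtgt

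Genes of MHC class I presentation are also raised by interferons. Of 15 tested, 4 fell and 0 rose (median -0.78), so that 26.7% were lower against 19.9% of all genes. The immunoproteasome subunit Psmb8 had 21.5 and 17.8 CPM in WT and 1.05 and 1.63 CPM in KO (log2 fold change -3.87 ± 0.52, FDR = 0.00081), and Psmb9 fell by -2.75. H2-K1, a heavy chain, had 108 and 79.5 against 42.1 and 44.6 CPM (-1.11 ± 0.45, FDR = 0.0915) and was not called. The count of 4 was 10 in the fit of the 4 day 10 libraries and 2 without KO replicate A.

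Epithelial genes, which reprogramming switches on when fibroblasts turn into a compact epithelium, were lower in KO. Of 25 tested, 18 fell and 0 rose (median -1.80). Cdh1, which encodes E-cadherin, had 636 and 587 CPM in WT and 111 and 77 CPM in KO (log2 fold change -2.70 ± 0.53, FDR = 0.00501), a call lost without KO replicate B (FDR = 0.0634). The tight junction gene Cldn7 had 17.3 and 16 against 1.36 and 1.33 CPM (-3.62 ± 0.29, FDR = 0.000105), and the simple keratin gene Krt8 had 109.8 and 126 against 10 and 4.4 CPM (-4.03 ± 0.36, FDR = 0.000138). For Krt8 and Cdh1 replicate A was the higher of the KO libraries, as in 20 of the 25 genes. Marveld2, a tight junction protein, had 0 counts in KO and was at least 65.2-fold lower. Esrp1, a splicing regulator of epithelia, lay at 0.49 and was not called.

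Of 15 trophectoderm markers, genes of the lineage that forms the placenta, 11 fell and 0 rose (median -1.47), and 7 fell without KO replicate B. Krt7 had 24.7 and 27.2 CPM in WT and 0.806 and 0.422 CPM in KO (log2 fold change -5.39 ± 0.48, FDR = 0.000138), and the T-box factor Eomes had 7.76 and 10.9 against 2.36 and 1.21 CPM (-2.38 ± 0.36, FDR = 0.00144). Cdx2, the defining factor of the lineage, was at most 0.687 CPM in any of the 4 libraries. Of 13 genes of stratified epithelium 9 fell and 2 rose (median -2.31). Krt6a had 382 counts in WT and 1 in KO, a ratio of 358 (95% counting interval 63.8 to 14160), with 4.59 and 18.4 CPM in the WT libraries. Perp, a desmosome protein, rose from 91.2 and 84 to 244 and 263 CPM (1.53 ± 0.21, FDR = 0.000862).

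Fibroblast genes split, and collagens fell. Of 28 mesenchymal genes 6 rose and 9 fell (median -0.74), while of 16 collagen genes 12 fell and 0 rose (median -3.94). The mesenchymal shares were 21.4% and 32.1%, against 12.4% and 19.9% of all genes. The mesenchymal genes that rose were Vim, Zeb1, Zeb2, Cdh2, Fstl1 and Timp1. Those that fell were Thy1, Postn, Dcn, Pdgfrb, Acta2, Tagln, Fbln1, Lox and Mmp2. Vim, the intermediate filament vimentin, had 262 and 272 CPM in WT and 1070.3 and 1047 CPM in KO (log2 fold change 1.99 ± 0.26, FDR = 0.000749). Zeb2, a repressor of Cdh1, had 2.43 and 2.06 against 23.2 and 23 CPM (3.36 ± 0.20, FDR = 5.57e-05), and Cdh2, which encodes N-cadherin, had 3.38 and 2.87 against 65.7 and 45.2 CPM (4.14 ± 0.64, FDR = 0.00158). These genes thus went opposite to Cdh1. Col1a1, the main chain of type I collagen, went the other way, with 47.5 and 74.7 CPM in WT and 0.496 and 0 CPM in KO (-7.92 ± 1.16, FDR = 0.00121). Col5a2 had 35.4 and 92.2 against 0.496 and 0.362 CPM (-7.20 ± 0.81, FDR = 0.000559), and the matrix protease Mmp2 had 11.5 and 8.93 against 0.31 and 0.301 CPM (-5.03 ± 0.56, FDR = 0.000351). The count of 9 mesenchymal genes lower was 15 in the fit of the 4 day 10 libraries, 5 without WT replicate A, 5 without KO replicate A and 4 without KO replicate B, and the count of 12 collagens was 7 without KO replicate B.

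Over all 30 mesenchymal and fibroblast markers the summed level at day 10 was 3889.9 to 4498 CPM in WT and 4589.8 to 4844 CPM in KO. At day 0 it was 4367 to 6687 and 4000.1 to 7525 CPM. The day 10 sums were carried by Fn1, with means of 2903 CPM in WT and 1730 in KO, Fstl1 (323 and 1343) and Vim (267 and 1059). Falls of members with low levels hardly show in them. At day 10, 1 of the 30, Lum, had 0 counts in both WT libraries and 2, Lum and Twist2, in both KO libraries, while Prrx1, a factor of limb mesenchyme, lay between 5.44 and 7.81 CPM. Thy1, a fibroblast marker, fell from a mean of 6.78 CPM in WT to 1.16 in KO (log2 fold change -2.54, FDR = 0.00235). In the ESC library Col1a1 stood at 108 CPM, above both genotypes, and Vim at 362 CPM, between them.

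Hox genes were the list with most members higher in KO at day 10 among the 33 lists, and 12 members were higher at day 2. These homeobox genes mark position along the body axis, and pluripotent cells keep them silent through the Polycomb complexes. Of 30 tested, 17 rose and 5 fell (median 1.05), and 11 rose without WT replicate B and 11 without KO replicate A. Hoxd13, the last gene of its cluster, had 3.54 and 4.75 CPM in WT and 59.5 and 54.4 CPM in KO (log2 fold change 3.78 ± 0.28, FDR = 7.78e-05). Hoxd8 rose by 2.15 and Hoxd9 by 2.27. Along the HoxD cluster 7 of the 8 tested members rose, all but Hoxd1 (0.30), and the values other than those of Hoxd8, Hoxd9 and Hoxd13 were chosen after they were seen. Hoxc13 went the other way, with 12.9 and 10.4 against 1.36 and 1.02 CPM (-3.28 ± 0.33, FDR = 0.000231). The other members that fell were Hoxa11, Hoxb9, Hoxb13 and Hoxc12, with Hoxc12 at least 15.9-fold lower. Hoxa11 lost its call without WT replicate B and without KO replicate B.

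Neural genes were mixed, with 4 of 19 higher and 5 lower, against 12.4% and 19.9% of all genes. Their median was -0.14, but 0.86 over the 15 that pass the stricter filter and 0.11 without WT replicate A. Sox1, a factor of the neural plate, had 13.2 and 10.4 CPM in WT and 138 and 159.9 CPM in KO (log2 fold change 3.66 ± 0.19, FDR = 3.66e-05), and Sox11 had 31.9 and 35.2 against 142 and 165 CPM (2.20 ± 0.24, FDR = 0.0003). Tubb3, a neuronal tubulin, fell from 20.1 and 29.2 to 3.47 and 2.05 CPM (-3.15 ± 0.48, FDR = 0.00152). The count of 4 was 2 without WT replicate B and 2 without KO replicate B, and that of 5 was 3 in DESeq2, 2 without WT replicate A, 3 without WT replicate B and 2 without KO replicate B. Of 11 primed epiblast markers 4 fell and 0 rose, among them Otx2, the factor of the formative epiblast, from 28.9 and 24.2 to 3.53 and 1.75 CPM (-3.33 ± 0.34, FDR = 0.000377), and the count was 2 without KO replicate A and 2 without KO replicate B. The share of primed epiblast markers that fell was 36.4%, against 19.9% of all genes. Of 14 primitive endoderm markers 6 fell (42.9%), among them Dab2, an endocytic adaptor (-1.91 ± 0.29, FDR = 0.00151). That count was 1 without WT replicate A, 3 without WT replicate B, 2 without KO replicate A and 2 without KO replicate B.

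Targets of the pathways on which the inhibitors act were read next. Transcripts that report ERK activity, which PD-0325901 lowers, included more genes that rose in KO than fell: of 20 tested, 10 rose and 2 fell (median 0.93), and 6 rose without WT replicate A, 4 without WT replicate B, 5 without KO replicate A and 5 without KO replicate B. The ETS factor Etv4 had 1.69 and 1.87 CPM in WT and 44.7 and 37.4 CPM in KO (log2 fold change 4.52 ± 0.19, FDR = 3.19e-05), and Etv1 had 8.02 and 6.18 against 25.4 and 31.6 CPM (2.00 ± 0.22, FDR = 0.000319). Spred1, an inhibitor of RAS, rose by 1.12 ± 0.17 (FDR = 0.0013) and Dusp4, an ERK phosphatase, by 1.76 ± 0.32 (FDR = 0.00346). Dusp6, the best-known ERK phosphatase of this set, was low in both genotypes, with 5.07 and 4.87 CPM in WT and 7.44 and 9.22 CPM in KO (0.74 ± 0.20, a call lost without WT replicate A, WT replicate B or KO replicate B), against 92.8 and 89.1 CPM in untreated WT cells. Spry1 and Epha4 were the 2 that fell, and Epha4 lost its call without any 1 of the day 10 libraries.

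Wnt targets, which CHIR-99021 raises, did not move one way: of 16 tested, 4 rose and 6 fell (median -0.97, but -0.10 over the 15 that pass the stricter filter), and 2 rose without WT replicate A, 2 without WT replicate B and 2 without KO replicate B. Of the 16 tested, 25% thus rose and 37.5% fell, against 12.4% and 19.9% of all genes. Axin2, the feedback inhibitor used as a reporter of the pathway, had 8.5 and 11.7 CPM in WT and 7.44 and 13.3 CPM in KO (log2 fold change 0.04 ± 0.41, FDR = 0.962), and the groups overlapped. Tcf7, a nuclear partner of β-catenin, had 43.2 and 43.9 against 9.42 and 9.65 CPM (-2.19 ± 0.19, FDR = 0.00014), and Tnfrsf19 fell by -2.33 ± 0.39 (FDR = 0.00221). Wnt8a, a ligand, rose from 2.22 and 2.12 to 22.3 and 20.2 CPM (3.29 ± 0.58, FDR = 0.003).

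Of 12 genes of LIF and STAT3 signalling, 3 rose and 3 fell (median 0.27), against 12.4% and 19.9% of all genes, and 1 rose without WT replicate A, WT replicate B or KO replicate B. Pim1, a kinase and STAT3 target, had 132 and 128 CPM in WT and 24.3 and 24.4 CPM in KO (log2 fold change -2.42 ± 0.16, FDR = 6.18e-05), and the related Pim3 fell by -1.07. Socs3, the feedback inhibitor of STAT3, had 212 and 195 against 237 and 262 CPM (0.29 ± 0.18, FDR = 0.268) and was not called. The LIF receptor gene Lifr rose from 123 and 106 to 292 and 339 CPM (1.46 ± 0.45, FDR = 0.0373), a call lost without any 1 of the 4 day 10 libraries (FDR = 0.104 to 0.184). Ptpn11, the phosphatase that links the receptor to ERK, rose from 132 and 126 to 279 and 259 CPM (1.06 ± 0.17, FDR = 0.00192).

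Other genes of H3K9 methylation were read against the 12.4% of all genes that rose and the 19.9% that fell. Of the 9 demethylase genes of this kind other than Kdm3b, 2 rose and 0 fell; the paralogs Kdm3a, with 186 and 194 CPM in WT and 217 and 189 CPM in KO (log2 fold change 0.10 ± 0.18), and Jmjd1c (0.56 ± 0.27) were not called. Phf2 rose from 35.7 and 35 to 83.8 and 88.6 CPM (1.29 ± 0.22, FDR = 0.00264). Of 14 methyltransferase and reader genes 1 rose, Suv39h1, from 32.4 and 35.3 to 78.3 and 85.8 CPM (1.28 ± 0.15, FDR = 0.000468), and 1 fell. Without any 1 of the 4 day 10 libraries 1 demethylase gene rose and 0 methyltransferase and reader genes fell. In the fit of the 4 day 10 libraries alone 5 demethylase genes rose, and 4 methyltransferase and reader genes rose and 5 fell. That fit called 4024 of 13734 genes higher and 4530 lower.

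In DNA methylation, 4 of 16 genes rose and 4 fell, 25% each, against 12.4% and 19.9% of all genes. Tet1, which oxidises methylcytosine, had 398 and 463 CPM in WT and 112 and 92.9 CPM in KO (log2 fold change -2.07 ± 0.36, FDR = 0.00263). The de novo methyltransferase gene Dnmt3b had 66.4 and 73.1 against 19 and 12.9 CPM (-2.13 ± 0.21, FDR = 0.000202), and the chromatin remodeller gene Hells fell by -1.45 ± 0.23 (FDR = 0.00175), while the reader Mbd2 rose by 0.99 ± 0.16 (FDR = 0.00219). Dnmt1, the maintenance enzyme, lay at 0.21 ± 0.21 and was not called. The count of 4 that rose was 1 without any 1 of the 4 day 10 libraries and 2 without WT day 2 replicate B. Of 12 genes of the Polycomb complex PRC2, Mtf2, an accessory subunit, fell from 268 and 296 to 108 and 103 CPM (-1.42 ± 0.14, FDR = 0.000231), and the catalytic Ezh2 lay at -0.38 and was not called.

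Of 25 imprinted genes, 8 fell and 2 rose (median -0.37). These shares were 32% and 8%, against 19.9% and 12.4% of all genes. Slc38a4, an amino acid transporter, had 244 and 267 CPM in WT and 5.02 and 2.53 CPM in KO (log2 fold change -6.08 ± 0.43, FDR = 7.3e-05). Plagl1, a zinc-finger factor, had 75.3 and 88.5 against 6.26 and 2.95 CPM (-4.15 ± 0.49, FDR = 0.000454), and Igf2, a growth factor, had 128 and 112 against 26.3 and 29.9 CPM (-2.09 ± 0.23, FDR = 0.000334). Cdkn1c, an inhibitor of cyclin-dependent kinases, fell by -2.39 ± 0.38 (FDR = 0.00187). Dlk1 had 0 counts in KO and was at least 35.9-fold lower, although its call was lost in DESeq2 (adjusted p = 0.233), without WT replicate A (FDR = 0.0624) and without KO replicate B (FDR = 0.052). These are totals of both alleles. The 2 that rose were Peg10 and Snrpn, both calls lost without WT replicate A and without WT replicate B, and that of Peg10 also without KO replicate A, KO replicate B or WT day 2 replicate B. In the fit of the 4 day 10 libraries alone 7 of 23 rose and 11 fell, against 4024 and 4530 of 13734 genes.

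Few cell cycle genes were called. Of 24 tested, 0 rose and 1 fell, Bub1, by -0.73 ± 0.17 (FDR = 0.0114), a call lost without WT replicate A (FDR = 0.0557), WT replicate B (FDR = 0.0757) or KO replicate B (FDR = 0.101), and the median was -0.19. At an unadjusted p under 0.05 the list held 7 genes, and DESeq2 called 4 lower. In the fit of the 4 day 10 libraries alone 4 rose and 12 fell, with log2 fold changes of the list between -0.79 and 0.91. That fit called 4024 of 13734 genes higher and 4530 lower. Among G1 regulators, the cyclin gene Ccnd2 rose from 90.2 and 70.6 to 386 and 391 CPM (2.27 ± 0.19, FDR = 0.000118) and the inhibitor gene Cdkn2c from 3.27 and 2.62 to 11 and 11.7 CPM (1.94 ± 0.33, FDR = 0.00236). Among genes of the amino acid response driven by ATF4, 5 of 19 fell and 1 rose (median -0.54). These shares were 26.3% and 5.26%, against 19.9% and 12.4% of all genes. Asns, asparagine synthetase, had 402 and 434 against 79.5 and 81.1 CPM (-2.38 ± 0.41, FDR = 0.00265), and Trib3, a pseudokinase, had 32.5 and 28.6 against 6.51 and 5.79 CPM (-2.31 ± 0.19, FDR = 0.000112). The factor Atf4 itself lay at 0.13 and was not called, and 10 of the list fell in the fit of the 4 day 10 libraries alone.

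Markers of cell types other than the labelled one were read in the same libraries. The summed CPM of 12 immune markers was 95.9 to 105 in WT and 22.1 to 22.8 in KO. Of the 12, 3 had 0 counts in both WT libraries (Ptprc, Emr1 and Tyrobp) and 6 in both KO libraries. Of the 6 tested, 4 fell, and 2 without WT replicate A, 2 without KO replicate A and 1 without KO replicate B. Cd3e, a chain of the T cell receptor complex, had 140 counts in WT and 2 in KO, a ratio of 65.5 (95% counting interval 17.8 to 546). That of 12 endothelial markers was 274 to 301 in WT and 44.3 to 53.4 in KO, and Cdh5, the defining cadherin, was at most 0.542 CPM. Of the 9 endothelial markers tested, 2 rose (22.2%), 3 fell (33.3%) and 4 were not called, against 12.4% and 19.9% of all genes. The endothelial sum was carried by Pecam1, a surface protein that mouse ESCs also express, with 208 and 189.6 CPM in WT and 5.33 and 3.5 CPM in KO (log2 fold change -5.49 ± 0.29, FDR = 3.66e-05), and 59.5 CPM in the ESC library. Muscle markers summed to 28.9 to 33.7 CPM in WT and 9.42 to 13.4 in KO, and Myod1, the defining factor, was at most 0.0528 CPM. The part of these sums in the other results was not tested. In bulk libraries, fewer cells of a kind and less RNA per cell cannot be told apart.

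The genotypes already differed before treatment, with fewer genes called than at day 10. At day 0, 1187 genes (8.29%) were called, 801 lower (5.59%) and 386 higher (2.69%) in KO, and at day 2 there were 1498 (10.5%), 883 lower (6.16%) and 615 higher (4.29%). These contrasts share no library with that of day 10, although all 3 share the fit. A test of whether the genotype difference at day 10 differed from that at day 0 (the interaction of genotype and day) called 1798 genes (12.6%), 888 downward (6.2%) and 910 upward (6.35%). This fit has no term for the replicate letter, although same-lettered libraries deviated together at days 0 and 2. With the letter as a replicate block over all days, 1792 genes were called at day 0, 2293 at day 2, 2942 by the interaction and 6056 at day 10. With the block at days 0 and 2 alone the counts were 4360, 5252, 6388 and 9136.

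**Figure D3:**
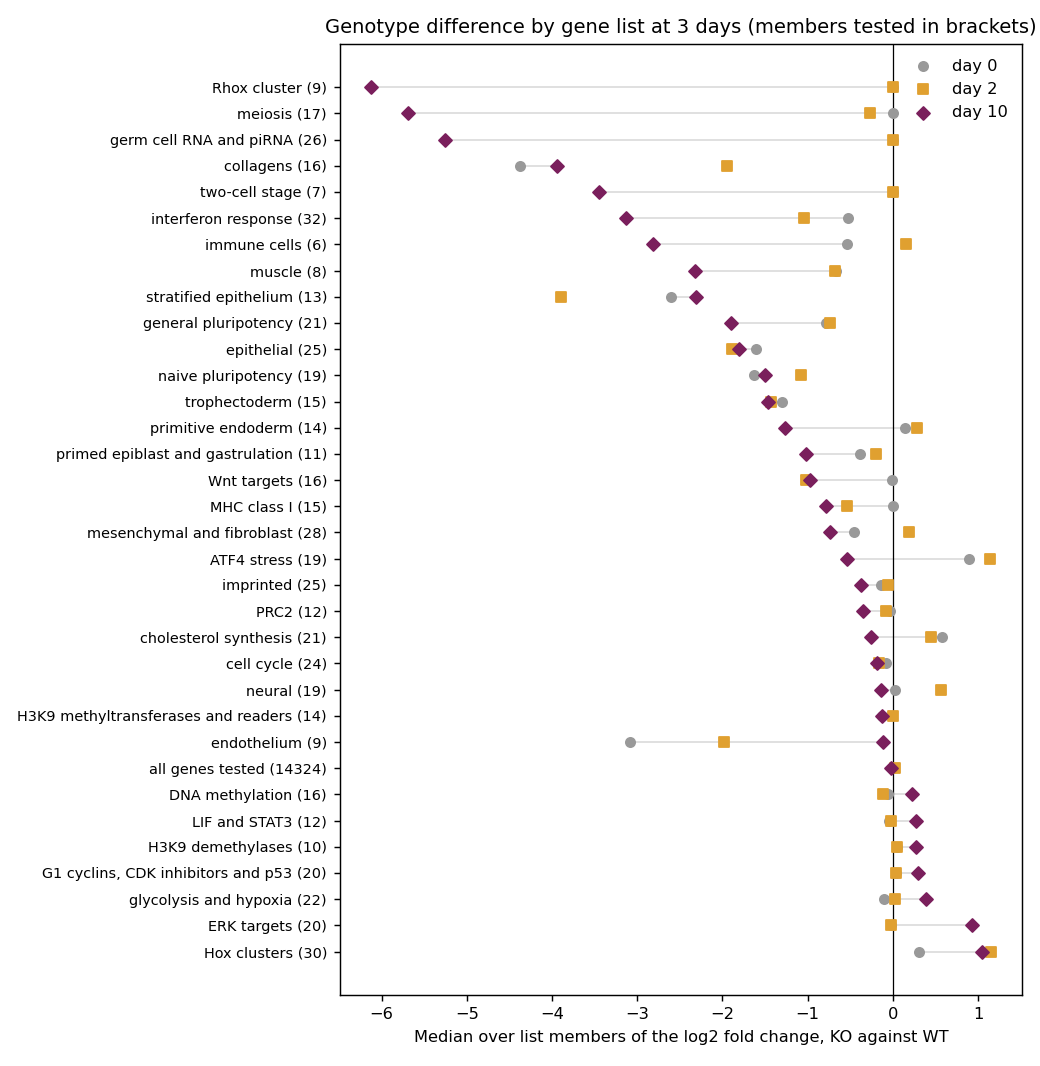
Median log2 fold change of KO over WT over the tested members of each gene list (x axis, members tested in brackets) at day 0 (circles), day 2 (squares) and day 10 (diamonds), each from 2 libraries a genotype. Medians are of fitted values, which for members at 0 counts in KO are not bounds; with bounds the day 10 medians of germ cell, meiosis and Rhox genes are -4.90, -4.97 and -2.90, and most members of these lists were under 1 CPM at day 0, whereas epithelial and naive pluripotency genes lie between -1.08 and -1.89 at each of the 3 days.

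Not every list could be compared at day 0. Of the tested members, 21 of 26 germ cell genes, 14 of 17 meiosis genes and 7 of 9 Rhox genes averaged under 1 CPM in both genotypes at day 0, so that a lower level in KO could hardly be seen there. The same held for 12 of 32 interferon, 8 of 25 epithelial, 7 of 30 Hox and 5 of 16 collagen genes and 1 of 20 ERK targets. The median of interferon genes was -0.53 at day 0, with 9 of 32 lower, and -3.13 at day 10, with 27 lower. ERK targets were at -0.02 at day 0 with 0 higher, and at 0.93 at day 10 with 10 higher. Hox genes were at 0.31 at day 0, with 7 higher and 2 lower. They were at 1.16 at day 2, with 12 higher and 2 lower, and at 1.05 at day 10, with 17 higher and 5 lower. Epithelial genes were at -1.61, with 9 lower, at day 0 and -1.89, with 14 lower, at day 2, and collagens at -4.37, with 6 lower, at day 0. For Cdh1 the log2 fold change was -3.24 at day 0 (FDR = 0.00793) and -2.70 at day 10, and the interaction was not called (FDR = 0.746).

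**Figure D4:**
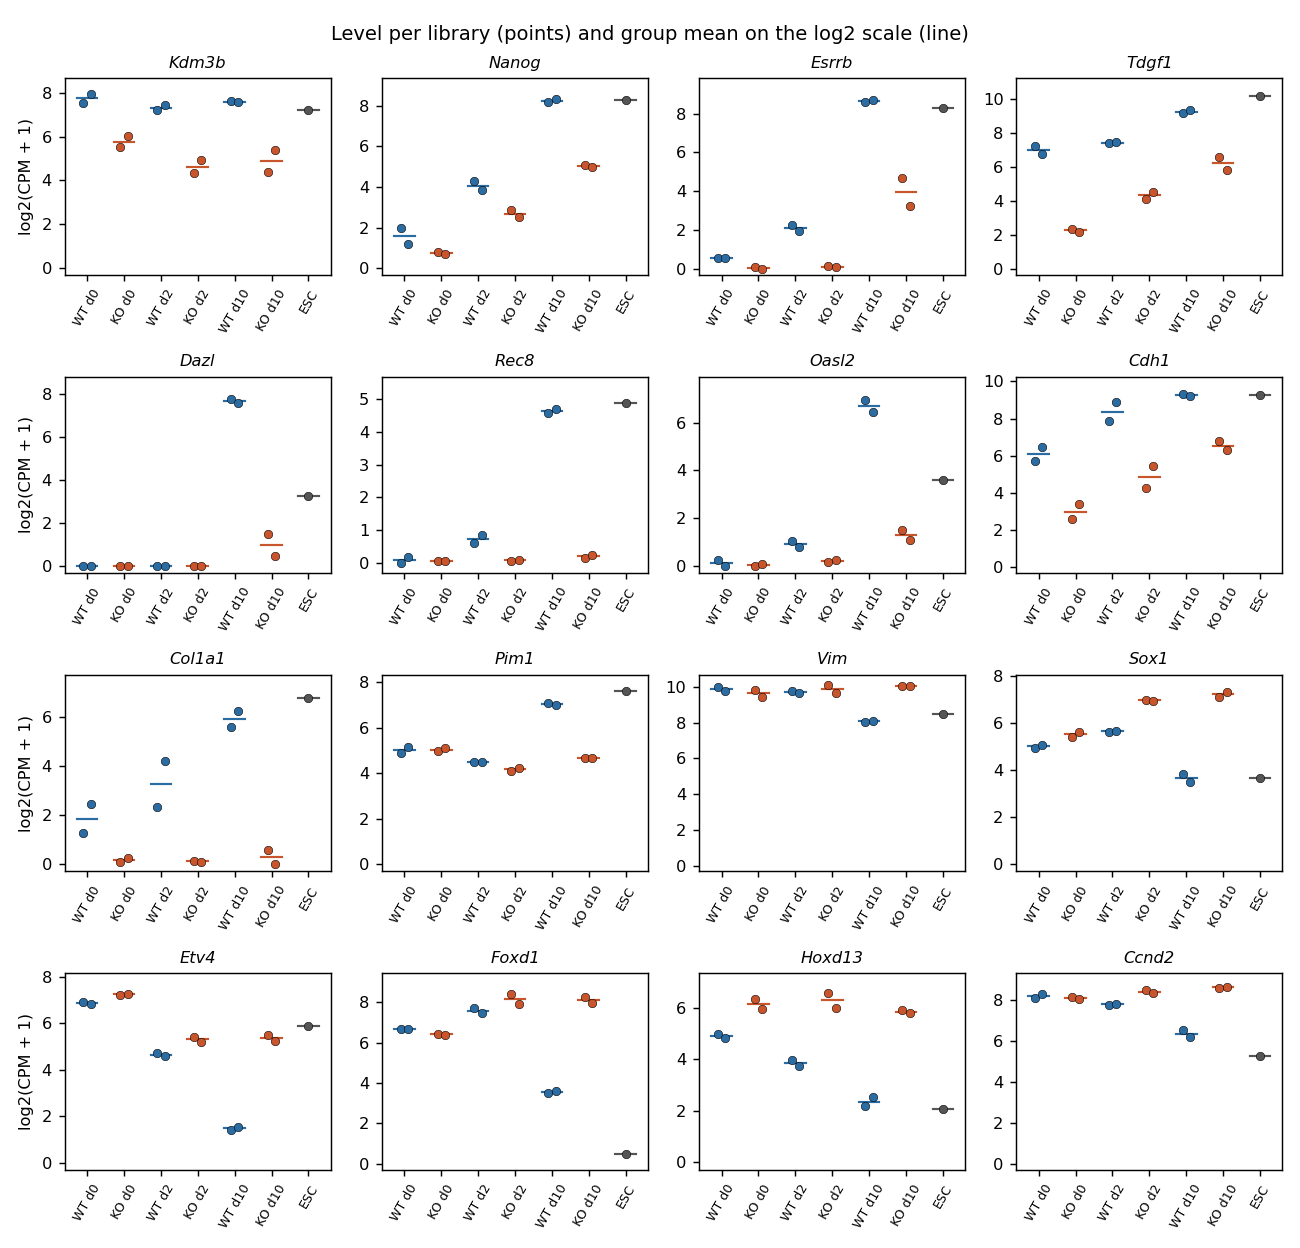
Level of 16 genes as log2(CPM + 1) (y axis) in each pre-iPSC library by genotype and day (d0, d2, d10) and in the ESC library; points are libraries and lines are group means on that scale, WT in blue and KO in orange. Nanog and Esrrb lie higher at day 10 than at day 0 in both genotypes, with KO below WT, Dazl, Rec8 and Oasl2 leave the baseline in WT at day 10, and Vim, Sox1, Etv4, Foxd1 and Ccnd2 are lower at day 10 in WT than in KO.

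Gene by gene, the interaction separated several patterns. Some genes were lower at day 10 than at day 0 in both WT libraries and higher in both KO libraries: Foxd1 had 102 and 101 CPM in WT and 85.6 and 82.4 in KO at day 0, against 10.5 and 11.1 and 308 and 250.2 at day 10 (interaction log2 value 4.97, FDR = 0.000128). Ccnd2 (2.39, FDR = 0.000954) and Vim (2.22, FDR = 0.00532) showed the same. Pim1 was higher at day 10 than at day 0 in both WT libraries and lower in both KO libraries: it had 28.5 and 34.6 CPM in WT and 30 and 33.4 in KO at day 0, against 132 and 128 and 24.3 and 24.4 at day 10 (-2.43, FDR = 0.000478). For Hoxc13 the direction turned: KO had 2.24 and 2.22 CPM and WT 0.12 and 0.198 at day 0, and 1.36 and 1.02 and 12.9 and 10.4 at day 10 (-7.06, FDR = 0.000201).

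In a further group the difference narrowed. Tdgf1 had 151 and 111 CPM in WT and 4.24 and 3.65 in KO at day 0, against 568 and 643 and 94.9 and 57 at day 10, so that the log2 fold change went from -5.05 to -2.99 (interaction 2.05, FDR = 0.0121). Otx2 had 2.63 and 2.97 CPM in WT and no count in KO at day 0, against 28.9 and 24.2 and 3.53 and 1.75 CPM at day 10 (interaction FDR = 0.0156). For Nanog the interaction was -1.62 (FDR = 0.0665) and for Esrrb -0.69 (FDR = 0.962), neither called. For Slc38a4 the difference was as large at day 0 (-6.15) as at day 10 (-6.08), and the interaction was not called (FDR = 0.966). For Kdm3b it was -1.98 at day 0 and -2.67 at day 10 (interaction FDR = 0.487).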

How the data were processed

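RNA of WT and Kdm3b KO pre-iPSCs was sequenced single-end from TruSeq libraries, per the labels' protocols, and aligned with Bowtie2 and counted with RSEM on mm9, per the submitters' processing notes (tool versions: not given in the sources used here). The deposited values used are RSEM expected counts per gene, of which 35.0 to 43.8% per library lay more than 0.005 from a whole number, since RSEM shares reads between transcripts. The authors' TPM values are relative to transcript length and entered no test. After rounding, the tests were run with edgeR 4.0.16 in R 4.3.3: filterByExpr (14324 of 20325 genes), TMM, 1 quasi-likelihood fit of 6 groups with 2 libraries each (common biological coefficient of variation 0.266, 6 residual degrees of freedom) and contrasts of KO against WT by day and of genotype with day 10. CPM use TMM-scaled library sizes. No 2 libraries were identical. The fit was tested on simulated data.

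Alternatives were the 4 day 10 libraries alone, DESeq2 1.42.0, size factors of the RLE kind, looser and stricter filters, a replicate block, and leaving out each library. A block at days 0 and 2 only was added after seeing the data. The treatment label of day 0 names AA+2i while the titles name DMSO, and day 0 is read here as untreated.

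Members and lists (662 entries in 35 lists, 645 found; 33 counted, and the sex-linked and reprogramming genes given by gene) were chosen with earlier results of these data known. Genes are named by a rule: Kdm3b; the 12 largest called changes each way among genes averaging 5 CPM or more whose groups do not overlap; and in each list the 4 members of lowest FDR that average 1 CPM or more. Other genes named (among them Zfp42, Stat3, Nodal, Isg15, Ifit1, Cdh1, Cdh2, Dusp6, Axin2 and Lifr) were chosen after their values were seen. Some genes are counted in the lists but not reported here by name. Folds against 0 counts use a floor of 3 counts over the group, and counting intervals are exact 95% binomial intervals and cover counting error only. Promoter windows are the first listed start per gene in RefSeq. Figures used matplotlib 3.10.9.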

Additional observations from a re-analysis of the deposited data

Results flagged for a closer look

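For the genes below, the difference between KO and WT at day 10 was itself different from that at day 0 in edgeR's interaction test (FDR under 0.05), which flagged them. Each value is the day 10 log2 fold change minus that of day 0, so that a negative value means that the difference moved towards lower levels in KO. Chance alone gives some such calls among 14324 genes, of which 12.6% were called.

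Pluripotency genes were found on both sides. Dppa4 was at -6.07, Tbx3 at -4.12, Zfp42 at -3.30, Fgf4 at -2.67 and Nr5a2 at -1.54, against Klf2 at 1.18, Stat3 at 1.14, Lifr at 2.64 and Tdgf1 at 2.05. For Klf2 and Tdgf1 the KO deficit was smaller at day 10 than at day 0. Of the germline and related genes, Aurkc was at -7.06, Rec8 at -6.81, Xlr5b at -6.15 and Sycp1 at -4.22. The call of Rec8 was lost in the fit of days 0 and 10 alone (FDR = 0.0554). Of the interferon and proteasome genes, Isg15 was at -4.29, Irf7 at -3.15, Psmb9 at -3.11 and Trim25 at -1.15.

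Other genes with negative values were Hoxc13 (-7.06), Krt7 (-6.92), Tnfrsf19 (-4.46), Mmp2 (-3.73), Dab2 (-3.49), Tubb3 (-3.38), Cdkn1c (-3.37), Asns (-3.27), Igf2 (-3.05), Trib3 (-2.99), Spry1 (-2.61), Pim1 (-2.43), Tcf7 (-2.17), Mtf2 (-1.93) and Hells (-1.40). Among them Hoxc13 was higher in KO at day 0 (3.79) and lower at day 10 (-3.28).

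Positive values were found for transcription factors and neuronal genes that WT cells had at a lower level at day 10 than KO cells: Foxd1 (4.97), Plcb1 (4.94), Cdh8 (4.59), Insm1 (4.58), Etv4 (4.13), Ebf3 (4.00), Gpm6b (3.57), Sox1 (3.14), Sox11 (2.75), Hoxd13 (2.50), Etv1 (2.11), Hoxd8 (1.91) and Hoxd9 (1.86). They were also found for Cdh2 (4.23), Zeb2 (2.56), Vim (2.22), Ccnd2 (2.39), Cdkn2c (1.80), Spred1 (1.27), Mbd2 (1.23), Suv39h1 (1.22), Snrpn (1.52) and Phf2 (1.16, not called in the fit of days 0 and 10 alone, FDR = 0.057). The highest values were those of Peg10 (6.16), with 552 and 744 CPM in WT and 13.7 and 19.9 in KO at day 0 against 806 and 727 and 1492 and 1354 at day 10, and Wnt8a (7.83), with 2.03 and 2.87 CPM against 0 and 0.197 at day 0.

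For genes with no count in a group at day 0 the fitted size is not fixed by the data: Hoxc12 (-10.93), Otx2 (5.42) and Rhox9 (5.90). That of genes under 0.5 CPM at day 0, such as Aurkc, Rec8 and Krt7, is likewise uncertain. Egfl7, an endothelial gene, was at -3.17.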

How the results depend on the processing

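The count of 4628 genes depended on how the spread was estimated. It was 8554 (4024 higher, 4530 lower) in the fit of the 4 day 10 libraries, and 2620 to 2849 with 1 of these left out (833 to 1062 higher, 1596 to 1836 lower), which leaves a lone library assumed to vary like the others. It was 4957 in DESeq2, 4592 with RLE factors, 4404 without the filter and 4234 with the stricter one. It ranged from 4312 to 5009 without 1 library of days 0 or 2 (1634 to 2047 higher, 2678 to 2962 lower). With at least 2-fold change 1121 genes were higher and 2403 lower.

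With the replicate block the count was 6056 (2562 higher, 3494 lower), 8408 (3961 and 4447) with the replicate block in the 4 day 10 libraries, and 9136 (4335 and 4801) when the block covered days 0 and 2 alone. In the same 2 block fits, chosen after seeing the data for these counts, the 1187 genes of day 0 were 1792 and 4360, the 1498 of day 2 were 2293 and 5252, and the 1798 of the interaction were 2942 and 6388. The letters share only a number at day 10: deviations of WT and KO correlated at -0.025 there, against 0.872 to 0.915 among the groups of days 0 and 2, where same-lettered libraries deviated together. Of 153 named genes, 121 were called, 103 of these kept their call in every alternative that tested them, and none turned direction. A few of the 153 did not pass the filter of some alternatives and were not checked there. Depth limits genes under about 1 CPM.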

Other observations

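Metabolic genes not described above were mixed. Of 22 genes of glycolysis and the hypoxia response, 2 rose and 4 fell in KO at day 10 (median log2 fold change 0.39), shares near the 12.4% and 19.9% of all genes. In the fit of the 4 day 10 libraries 12 rose and 7 fell, and without KO replicate B 0 fell, while without WT replicate A, WT replicate B or KO replicate A 1 rose. Pdk1, the kinase that holds pyruvate out of the mitochondria, had 53.7 and 57.8 CPM in WT and 146 and 119.8 CPM in KO (1.25 ± 0.24, FDR = 0.00423). The neuronal-type glucose transporter gene Slc2a3 had 1023 and 1151 against 212 and 133 CPM (-2.65 ± 0.52, FDR = 0.00479), a call lost without KO replicate B (FDR = 0.0617). Of 21 cholesterol synthesis genes 1 rose and 4 fell (median -0.26), 4.76% and 19.05% against 12.4% and 19.9% of all genes. Without 1 day 10 library 0 or 1 of them fell, and in the fit of the 4 day 10 libraries 12 fell.

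The 9 endothelial markers tested went both ways, with 2 higher (22.2%) and 3 lower (33.3%) in KO (median -0.11). Among those that fell, Vwf, a clotting factor of endothelium, had 52.5 and 42.9 CPM in WT and 1.3 and 0.723 CPM in KO (-5.55 ± 0.50, FDR = 0.000231) and 0.12 and 0.346 CPM in WT at day 0. Egfl7, a secreted endothelial protein, had 17.9 and 19.9 against 4.22 and 3.44 CPM (-2.30 ± 0.22, FDR = 0.000182), and its interaction with day was called (-3.17, FDR = 0.000543). Glutathione S-transferase genes, a family looked at after its values were seen, had 3 of 21 members higher and 7 lower in KO, against 12.4% and 19.9% of all genes.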
